A study of Mus musculus with 4 samples.

Results

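The genes described here are the enzymes of the urea cycle and of amino acid breakdown in mouse liver. They are 42 genes taken from a list of symbols set by pathway, with no measured value used as a rule. The list was set with earlier results of these data known. All 42 were found among the 48709 Ensembl genes of the count files. They also passed the filter on low counts that left 13699 genes to test. RNA was sequenced from the livers of 4 untreated adult C57BL/6 mice, 2 labelled WT and 2 labelled DDI2-KO, to ask which transcripts differ when the aspartic protease DDI2 is deleted in the liver. In the DDI2-KO mice the floxed Ddi2 allele (flox/flox) is recombined by Cre under the albumin promoter, which acts in hepatocytes, and the study's methods give littermates as controls. Whether the WT littermates carry the floxed allele, and the sex and exact age of each mouse, are not given in the labels. The study's matings for this line crossed Ddi2 flox/flox mice with and without Cre. Its methods give both sexes and an age range for its mice as a whole. The study describes 2 biological replicates a group, and each library was treated as 1 mouse.

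Amino acids that are not used for protein are broken down in the liver. Their amino groups are moved by transaminases to glutamate, glutamate dehydrogenase or glutaminase releases ammonia, and the urea cycle of periportal hepatocytes turns that ammonia into urea, while pericentral hepatocytes catch what escapes as glutamine. The carbon skeletons are taken apart by a separate pathway for each amino acid, many of which run mainly or only in liver. Several of these genes are textbook targets of glucagon, glucocorticoids and liver-enriched transcription factors.

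Depth ranged from 22501208 to 34109018 gene reads a library, so that a floor of 3 counts lay at 0.0880 to 0.133 CPM. Levels are given as CPM, counts relative to a library size scaled by the TMM method, fold changes are those of the libraries labelled DDI2-KO over WT on the log2 scale with their standard error (SE), and adjusted p-values come from the quasi-likelihood test of edgeR, adjusted by Benjamini-Hochberg over all 13699 genes. A gene is said to have risen or fallen where its adjusted p was under 0.05. For Ddi2, the gene deleted, 4749 and 3812 reads were counted in WT against 4068 and 3777 under the DDI2-KO label, so its total count was not lower (log2 fold change 0.28, SE 0.17, adjusted p = 0.349). A count over the whole gene does not show whether the floxed exon was lost, so the genotype is taken from the labels. Hepatocyte markers dominated all 4 libraries, with a summed level of 161316 and 183779 CPM in WT and 152111 and 155515 CPM in the libraries labelled DDI2-KO, and 0 of the 8 tested markers changed. Of the other marker lists, 0 of 9 Kupffer cell and 0 of 9 stellate cell markers changed. Of bile duct markers 0 of 7 changed, and of lymphocyte and neutrophil markers 0 of 7. Stab2 of 9 sinusoidal endothelial and Hba-a1 of 5 red blood cell markers fell. Over all tested genes 2.53% rose or fell. The log2 fold change lay below 0 for 9 of 9 stellate cell and 5 of 5 red blood cell markers. It did so for 2 of 9 Kupffer cell, 5 of 9 endothelial, 2 of 7 bile duct and 5 of 7 lymphocyte and neutrophil markers. Over all tested genes 51.3% lay below 0. The endothelial markers summed to 606 to 685 CPM in WT and 610 to 638 CPM in the libraries labelled DDI2-KO, and the red blood cell markers to 109 to 210 and 68.3 to 79.3 CPM. In whole tissue, fewer cells of a type and less RNA per cell cannot be told apart. The share of reads on mitochondrial genes was 9.91% to 10.5% in WT and 5.27% to 6.34% in the libraries labelled DDI2-KO, and the part of these differences in the results was not tested.

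Tdo2 was the only one of the 42 genes that changed: it fell 2.93-fold in the libraries labelled DDI2-KO. None rose, and 41 did not pass the test. The share that changed, 2.38%, stood beside 2.53% of all tested genes, of which 1.20% fell and 1.33% rose. At an unadjusted p under 0.05 there were 7 of the 42 genes, against 23.5% of all tested genes. Upper-quartile scaling in place of TMM put 39.7% of the calls over all genes on the higher side, against 52.6%. The median log2 fold change of the 42 genes was -0.15 and that of all tested genes -0.015, but without library 2 labelled DDI2-KO the former was 0.075. The fold change lay below 0 for 29 genes, or 69.0% (51.3% of all tested genes), and above 0 for 13. For 24 genes the WT and the labelled DDI2-KO libraries overlapped. Both libraries labelled DDI2-KO lay below both WT libraries for 10 genes, or 23.8% (27.7% of all tested genes), and above them for 8, or 19.0% (28.0% of all tested genes). For 31 genes, or 73.8%, the 95% interval of the fold change lay within 2-fold either way, as it did for 61.2% of all tested genes. For the other 11 the interval reached a 2-fold change or beyond.

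**Figure D1:**
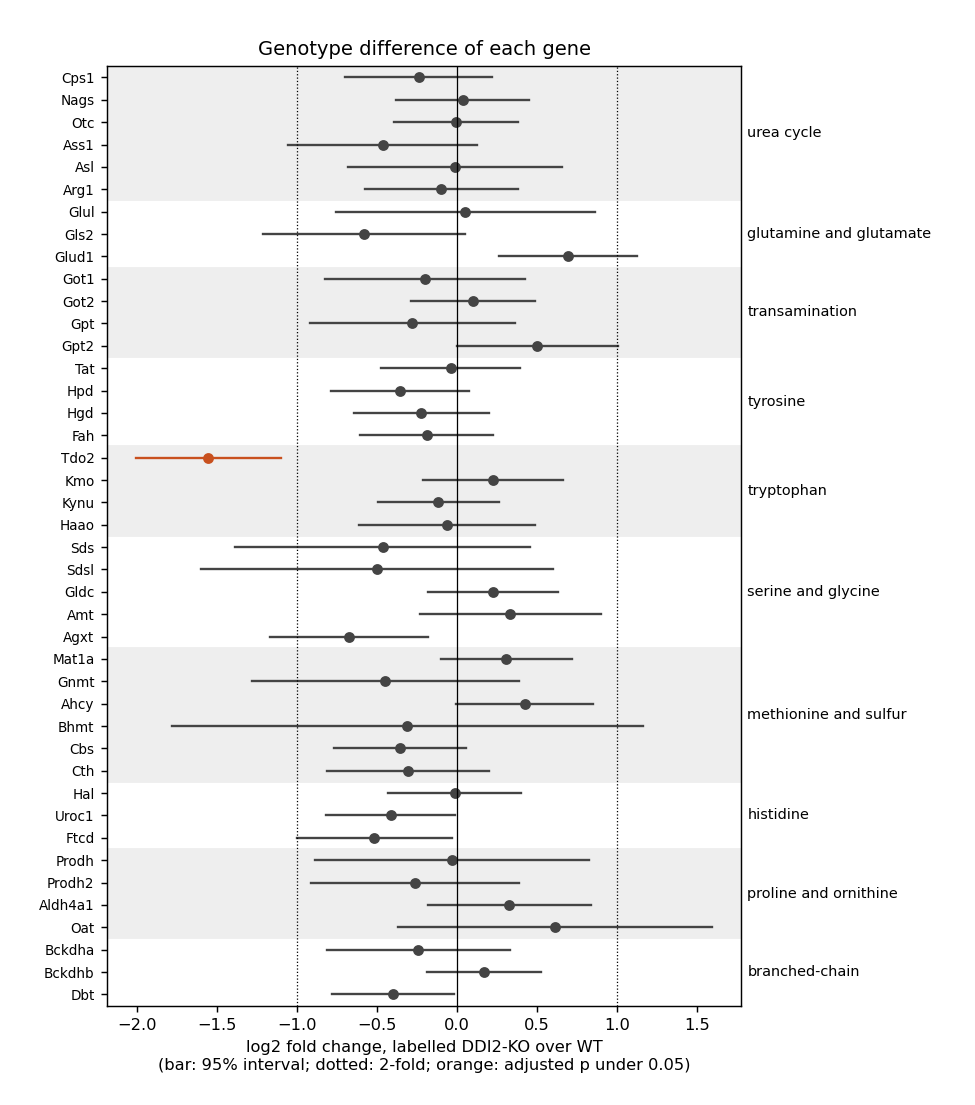
Log2 fold change of each of the 42 genes, labelled DDI2-KO over WT, on the horizontal axis, by role on the vertical axis. Points are the estimates of edgeR's quasi-likelihood test, bars 95% intervals derived from its F statistic and dotted lines a 2-fold change. The estimates run from -1.55 (Tdo2, orange, the gene with an adjusted p under 0.05) to 0.70 (Glud1), and the widest interval is that of Bhmt, from -1.78 to 1.16.

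Of the 4 tryptophan genes, Tdo2 alone changed. Tdo2 encodes tryptophan 2,3-dioxygenase, the haem enzyme that opens the indole ring of tryptophan in hepatocytes and sets the pace of the kynurenine pathway. Tdo2 (ENSMUSG00000028011) lies at chr3:81957090-81976202 on the minus strand of GRCm38. In WT 31979 and 35520 reads were counted on it, against 8380 and 9023 under the DDI2-KO label. Scaled, these were 951 and 1149.6 CPM in WT and 324 and 393 CPM in the libraries labelled DDI2-KO. The groups did not overlap, and the lower of the WT libraries stood well above the higher of the libraries labelled DDI2-KO. The means were 1050.4 ± 140.4 CPM (SD, n = 2) and 358 ± 48.7 CPM (SD, n = 2), a log2 fold change of -1.55 (SE 0.20, 95% interval -2.0 to -1.10, adjusted p = 0.0186 from edgeR). Tdo2 shared no stretch of 50 bases with an annotated transcript of another gene. The call held in 15 of 15 alternative analyses, with a log2 fold change between -1.69 and -1.41 and an adjusted p of up to 0.0381.

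The other enzymes of the kynurenine pathway did not pass the test. Kmo, the hydroxylase that acts on kynurenine, measured 267 and 205 CPM in WT and 282 and 271 CPM in the libraries labelled DDI2-KO (log2 fold change 0.23, SE 0.19, adjusted p = 0.516). Kynu, kynureninase, measured 136 and 149 CPM in WT and 136 and 126 CPM in the libraries labelled DDI2-KO (log2 fold change -0.11, SE 0.16, adjusted p = 0.718). Haao, the dioxygenase that leads on to quinolinate and NAD, measured 398 and 449 CPM in WT and 499 and 314 CPM in the libraries labelled DDI2-KO (log2 fold change -0.06, SE 0.24, adjusted p = 0.907). Kmo was just higher in both libraries labelled DDI2-KO, and Kynu and Haao overlapped between the groups. The intervals of these differences were -0.21 to 0.67 for Kmo, -0.49 to 0.26 for Kynu and -0.61 to 0.49 for Haao, so each lay within 2-fold. Per kilobase of exon, Tdo2 stood at 271 CPM in WT, above Haao at 90.5, Kmo at 49.9 and Kynu at 23.1, and at 92.3 CPM in the libraries labelled DDI2-KO, beside Haao at 86.8. Summed over the 4 genes, the level was 1752 and 1952 CPM in WT and 1240.4 and 1103 CPM in the libraries labelled DDI2-KO, a ratio of 0.633 that rests on Tdo2. When each gene was given equal weight instead, the log2 ratio of the sum moved from -0.66 to -0.34.

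The start regions of Tdo2 and of the kynurenine genes that did not change are shown to set the sequence of the changed gene beside its pathway. Each runs 5′ to 3′ from 250 bases before to 50 bases after the RefSeq start on GRCm38.p6, and RefSeq windows were found for 31 of the 42 genes. Kynu had no entry. Capitals mark matches, on either strand, to any of 6 short motifs picked after the expression values were seen. These were the antioxidant response element core TGACNNNGC, the metal response element core TGCACNC or TGCGCNC, the E-box CACGTG, the cAMP response element TGACGTCA, the glucocorticoid receptor hexamer AGAACA and the TATA box TATAAA. The windows are chr3:81975679-81975978 on the minus strand for Tdo2, chr1:175631943-175632242 on the plus strand for Kmo and chr17:83846741-83847040 on the minus strand for Haao.
Tdo2: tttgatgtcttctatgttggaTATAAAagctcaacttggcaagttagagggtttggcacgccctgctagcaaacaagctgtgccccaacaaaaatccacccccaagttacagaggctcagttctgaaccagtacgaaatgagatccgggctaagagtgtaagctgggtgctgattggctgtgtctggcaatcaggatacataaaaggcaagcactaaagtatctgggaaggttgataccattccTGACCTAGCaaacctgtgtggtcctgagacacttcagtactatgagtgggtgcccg
Kmo: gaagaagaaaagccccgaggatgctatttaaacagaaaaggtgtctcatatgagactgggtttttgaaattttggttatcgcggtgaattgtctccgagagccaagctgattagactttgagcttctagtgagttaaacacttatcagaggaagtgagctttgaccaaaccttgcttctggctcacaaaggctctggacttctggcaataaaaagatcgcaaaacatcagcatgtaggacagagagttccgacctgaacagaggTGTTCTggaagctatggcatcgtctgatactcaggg
Haao: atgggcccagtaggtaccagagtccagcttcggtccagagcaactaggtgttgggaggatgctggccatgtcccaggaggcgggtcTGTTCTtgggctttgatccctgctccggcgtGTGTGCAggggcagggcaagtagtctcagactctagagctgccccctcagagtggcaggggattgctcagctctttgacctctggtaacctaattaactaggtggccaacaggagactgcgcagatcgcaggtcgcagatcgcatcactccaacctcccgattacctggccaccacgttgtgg
The Tdo2 window holds TGACCTAGC, a match to the antioxidant response element core, beginning at position -6 from the RefSeq start, and TATAAA at position -229. The RefSeq starts of Tdo2, Kmo and Haao lie inside the gene spans of the GENCODE annotation used here for coordinates. A start farther upstream is thus also annotated for each of these genes. The Kmo window holds TGTTCT, the reverse complement of the glucocorticoid receptor hexamer, at position 15, and the Haao window holds it at -164 together with GTGTGCA, a metal response element core on the other strand, at -133. Such short matches are common. The antioxidant response element core was in 12.4% of all 32851 windows and in 4 of the 32 windows of the 31 genes (Tdo2, Amt, Bckdhb and Prodh), or 12.5%. The metal response element core was in 25.7% of all windows and 10 of the 32, the TATA box in 13.6% and 5, the glucocorticoid hexamer in 19.0% and 4, and the E-box in 7.15% and 2. The cAMP response element was in 1.79% of all windows and 0 of the 32. Tdo2 fell and the other 3 genes with the antioxidant core did not pass the test, with log2 fold changes of 0.34 for Amt, 0.17 for Bckdhb and -0.03 for Prodh. These matches are a description of the letters and not of binding.

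None of the 6 urea cycle genes passed the test, and all 6 overlapped between the groups. Cps1, the mitochondrial synthetase that takes up ammonia at the entry of the cycle, measured 2962 and 4031 CPM in WT and 3093 and 2837 CPM in the libraries labelled DDI2-KO (log2 fold change -0.24, SE 0.20, adjusted p = 0.515). Ass1, the argininosuccinate synthetase, had the highest level per length of the 6 genes, 633 CPM per kilobase in WT, next to 629 for Cps1, which is no difference beyond their spread. Ass1 measured 1259 and 1798 CPM in WT and 1328 and 889.8 CPM in the libraries labelled DDI2-KO (log2 fold change -0.46, SE 0.25, 95% interval -1.05 to 0.12, adjusted p = 0.311). Its libraries overlapped, with library 1 labelled DDI2-KO between the WT libraries. Of the distinct 50-base stretches in the longest Ass1 transcript, 55.3% also occur in transcripts of other genes, most often Gm5424. The count of Ass1 is thus uncertain. Arg1, the arginase that releases urea, measured 1355 ± 333 CPM (SD, n = 2) in WT and 1268 ± 37.7 CPM in the libraries labelled DDI2-KO. Otc, which joins carbamoyl phosphate to ornithine, measured 402 ± 14.0 and 401 ± 18.5 CPM, and Asl, the argininosuccinate lyase, 267 ± 55.1 and 265 ± 103 CPM. Nags, which makes the N-acetylglutamate that activates Cps1, measured 36.9 ± 2.16 and 37.8 ± 7.33 CPM. The 95% intervals were -0.39 to 0.39 for Otc, -0.38 to 0.45 for Nags and -0.68 to 0.66 for Asl, all within 2-fold. The summed level of the 6 genes was 6015 and 8156 CPM in WT and 6510.0 and 5580.5 CPM in the libraries labelled DDI2-KO, with WT library 2 highest and the other 3 libraries close together.

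**Figure D2:**
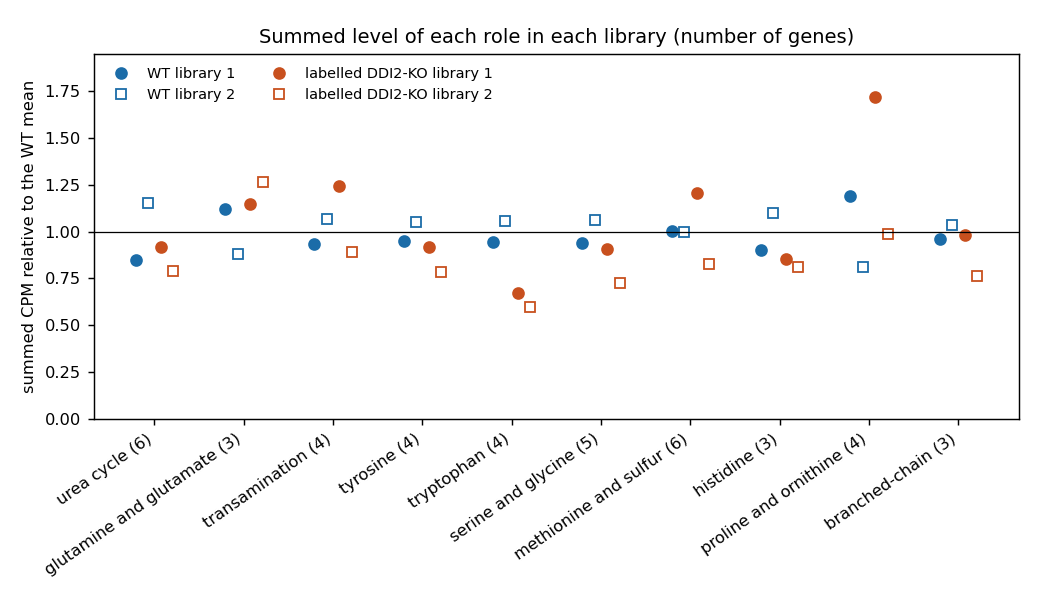
Summed TMM-scaled CPM of the genes of each role in each of the 4 libraries, divided by the mean of the WT libraries, with WT in blue, labelled DDI2-KO in orange, library 1 filled and library 2 open. The tryptophan genes lie farthest below WT, at a ratio of means of 0.633, while the urea cycle points of the genotypes overlap.

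Around glutamate, Glud1 and Gls2 had opposite signs and Glul varied within WT. Glud1 encodes glutamate dehydrogenase, which releases ammonia from glutamate in mitochondria. It measured 913 and 868 CPM in WT and 1271 and 1615 CPM in the libraries labelled DDI2-KO, with no overlap. Its log2 fold change of 0.70 (SE 0.19, 95% interval 0.26 to 1.13) was the highest of the 42 genes and missed the threshold (adjusted p = 0.0825 from edgeR). Of the 50-base stretches of Glud1, 8.17% are shared with transcripts of other genes. At an adjusted p under 0.1, Glud1 and Tdo2 were the genes called of the 42, beside 9.35% of all tested genes. Gls2, the liver glutaminase of periportal hepatocytes, measured 271 and 486 CPM in WT and 260.3 and 247 CPM in the libraries labelled DDI2-KO (log2 fold change -0.58, SE 0.27, adjusted p = 0.245), with the WT libraries 1.8-fold apart. Glul, the glutamine synthetase of the innermost pericentral hepatocytes, measured 1340.0 and 623 CPM in WT and 1055 and 984 CPM in the libraries labelled DDI2-KO (log2 fold change 0.05, SE 0.34, adjusted p = 0.942). Both libraries labelled DDI2-KO lay between the WT libraries. Glul was 2.15-fold apart within WT, and 14.2% of its 50-base stretches are shared with transcripts of other genes, most often a pseudogene. The 3 genes summed to 2524 and 1977 CPM in WT and 2586 and 2845 CPM in the libraries labelled DDI2-KO.

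None of the 4 transaminases passed the test. Got1, the cytosolic aspartate transaminase, had the highest level per length of the 4 in WT, 86.4 CPM per kilobase, and measured 189.7 and 249 CPM in WT and 239.6 and 142 CPM in the libraries labelled DDI2-KO (log2 fold change -0.20, SE 0.27, adjusted p = 0.703). Gpt2, the mitochondrial alanine transaminase, measured 205 and 239 CPM in WT and 372 and 258 CPM in the libraries labelled DDI2-KO (log2 fold change 0.50, SE 0.22, adjusted p = 0.210). Its groups did not overlap, but library 2 labelled DDI2-KO was close to WT library 2. Got2, the mitochondrial aspartate transaminase, had a log2 fold change of 0.10 (SE 0.17), and Gpt, the cytosolic alanine transaminase, of -0.28 (SE 0.27). Gpt measured 141 and 148 CPM in WT and 154 and 83.9 CPM in the libraries labelled DDI2-KO, so that library 2 labelled DDI2-KO alone stood apart. Of the 50-base stretches of Got2, 32.3% are shared with transcripts of other genes, most often a pseudogene, and its count is uncertain.

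The 4 tyrosine genes had log2 fold changes below 0, none past the test, though that of Tat was 0.012 with library totals in place of TMM. Hpd encodes the dioxygenase that follows the transaminase Tat, and per length it was the most abundant of the 42 transcripts in WT, at 1067 CPM per kilobase. Hpd measured 2227 and 2315 CPM in WT and 1993 and 1558 CPM in the libraries labelled DDI2-KO (log2 fold change -0.35, SE 0.19, 95% interval -0.78 to 0.07, adjusted p = 0.291). The libraries labelled DDI2-KO were the lower ones, and they differed from each other by more than the WT libraries did. Hgd, which opens the ring of homogentisate, had 703 ± 46.4 CPM (SD, n = 2) in WT and 603 ± 80.9 CPM in the libraries labelled DDI2-KO, and Fah, the last enzyme of the pathway, 761 ± 39.9 and 668 ± 87.8 CPM. Tat, a classical target of glucocorticoids, measured 868 and 1117 CPM in WT and 943 and 992 CPM in the libraries labelled DDI2-KO (log2 fold change -0.04, SE 0.19). For Hgd and Fah, library 1 labelled DDI2-KO was close to WT library 1, with 659.9 against 669.9 CPM for Hgd and 730.3 against 733 CPM for Fah, and library 2 was the lower. Hpd, Hgd and Fah did not overlap between the groups, which held in the lower direction for 27.7% of all tested genes, and Tat did overlap.

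**Figure D3:**
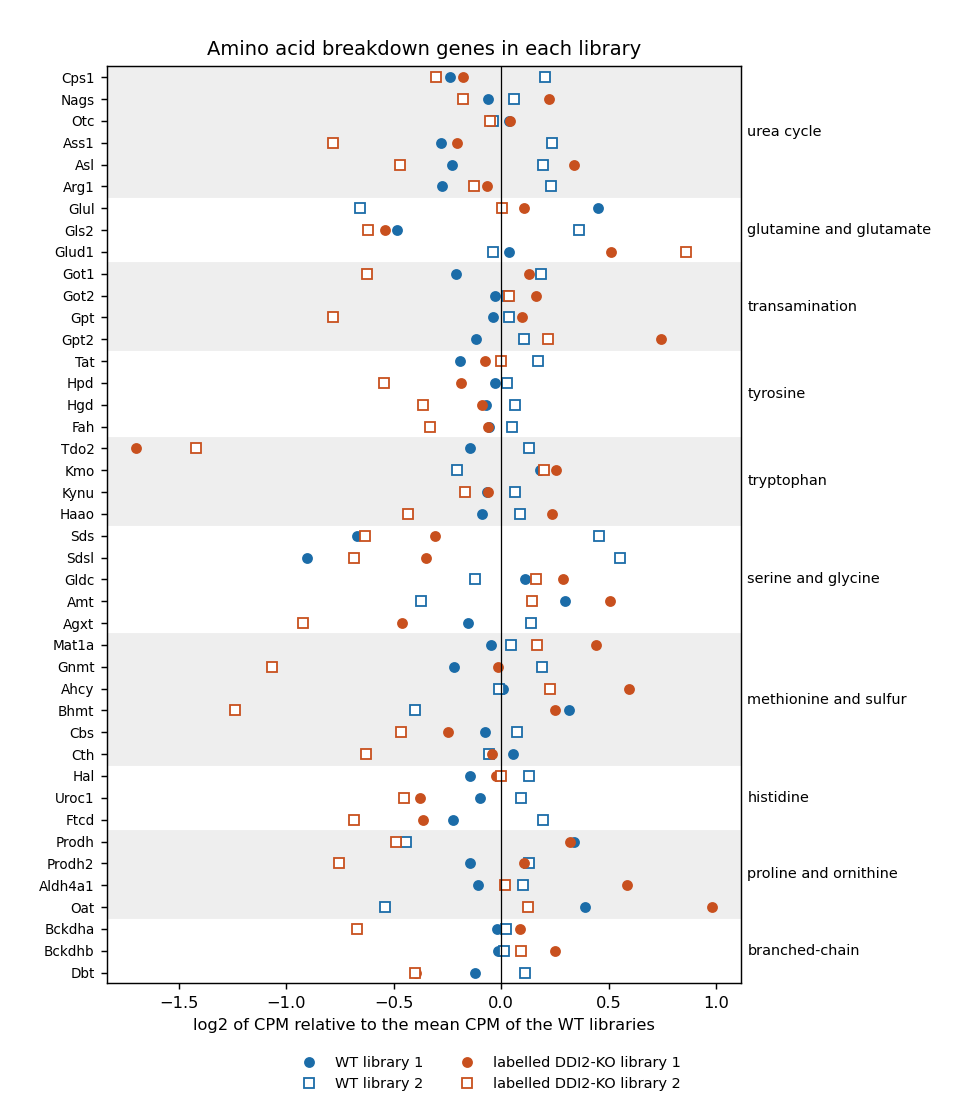
Log2 of the CPM of each of the 42 genes in each library, relative to the mean CPM of the WT libraries, ordered by role (WT blue, labelled DDI2-KO orange, library 1 filled, library 2 open). Both Tdo2 points of the libraries labelled DDI2-KO lie farther left than those of any other gene, and the genotypes overlap for 24 of the 42 genes.

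Among the serine and glycine genes Agxt was lower without passing the test. Agxt encodes the peroxisomal transaminase that turns glyoxylate into glycine and had the highest level per length of the 5 genes, 262 CPM per kilobase in WT. It measured 400.5 and 489.7 CPM in WT and 324 and 235 CPM in the libraries labelled DDI2-KO, with no overlap (log2 fold change -0.67, SE 0.22, 95% interval -1.17 to -0.18, adjusted p = 0.118). Gldc and Amt, parts of the mitochondrial glycine cleavage system, had log2 fold changes of 0.23 (SE 0.18) and 0.34 (SE 0.24). Sds, the serine dehydratase that fasting and glucagon induce, measured 45.6 and 99.7 CPM in WT and 58.7 and 46.8 CPM in the libraries labelled DDI2-KO, and its relative Sdsl 1.61 and 4.40 CPM in WT and 2.36 and 1.87 CPM in the libraries labelled DDI2-KO. For both, WT library 2 was high and the other 3 libraries were alike. Sdsl was the least expressed of the 42 genes in WT per length.

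None of the 6 methionine and sulfur genes passed the test. Gnmt, the glycine N-methyltransferase that uses up excess S-adenosylmethionine, had the highest level per length in WT, 881 CPM per kilobase, beside 858 for Mat1a, which makes S-adenosylmethionine. Gnmt measured 914 and 1212 CPM in WT and 1053 and 508 CPM in the libraries labelled DDI2-KO (log2 fold change -0.45, SE 0.35, adjusted p = 0.490), so that library 1 labelled DDI2-KO lay between the WT libraries and library 2 below all others. Mat1a measured 2878 and 3074 CPM in WT and 4042 and 3339 CPM in the libraries labelled DDI2-KO (log2 fold change 0.31, SE 0.18, adjusted p = 0.332). Ahcy, which clears S-adenosylhomocysteine, measured 176 and 173 CPM in WT and 264 and 205 CPM in the libraries labelled DDI2-KO (log2 fold change 0.42, SE 0.19, adjusted p = 0.217). Mat1a and Ahcy did not overlap between the groups. However, 77.0% of the 50-base stretches of Ahcy are shared with transcripts of other genes, and its count is uncertain. Bhmt, which returns homocysteine to methionine with betaine, measured 1484 and 905 CPM in WT and 1423 and 506 CPM in the libraries labelled DDI2-KO. Bhmt thus differed more within each genotype than between them, and its interval was the widest of the 42, -1.78 to 1.16 on the log2 scale. Cbs and Cth, which carry homocysteine on to cysteine, had log2 fold changes of -0.35 (SE 0.18) and -0.31 (SE 0.22).

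The 3 histidine genes had log2 fold changes below 0, though that of Hal was 0.036 with library totals in place of TMM, and none passed the test. Ftcd, the folate-dependent enzyme at the end of the pathway, measured 272 and 364 CPM in WT and 248 and 198 CPM in the libraries labelled DDI2-KO (log2 fold change -0.51, SE 0.21, adjusted p = 0.193). Uroc1, the urocanase, measured 423 and 482 CPM in WT and 349 and 331 CPM in the libraries labelled DDI2-KO (log2 fold change -0.41, SE 0.17, adjusted p = 0.203), and was the highest of the 3 per length at 130.4 CPM per kilobase in WT. Both were lower in both libraries labelled DDI2-KO. Hal, the histidine ammonia lyase at the start of the pathway, measured 502 ± 67.2 CPM (SD, n = 2) in WT and 498 ± 6.29 CPM in the libraries labelled DDI2-KO.

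None of the 4 proline and ornithine genes passed the test, and all overlapped. Oat, the ornithine aminotransferase that pericentral hepatocytes express most, was the highest of them per length, 263 CPM per kilobase in WT. Oat measured 814 and 427 CPM in WT and 1225 and 676 CPM in the libraries labelled DDI2-KO (log2 fold change 0.62, SE 0.40, 95% interval -0.37 to 1.60, adjusted p = 0.408). In both genotypes library 1 was far above library 2. Prodh, the proline dehydrogenase, did the same, with 121 and 70.7 CPM in WT and 119.7 and 68.4 CPM in the libraries labelled DDI2-KO. Prodh2, which acts on hydroxyproline, and Aldh4a1, the dehydrogenase that both feed, had log2 fold changes of -0.26 (SE 0.28) and 0.33 (SE 0.22). Of the 50-base stretches of Aldh4a1, 35.5% are shared with transcripts of other genes, most often one that overlaps it.

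The branched-chain genes encode 3 parts of the mitochondrial dehydrogenase that commits leucine, isoleucine and valine to oxidation. Dbt, its transacylase core, measured 107 and 126 CPM in WT and 88.2 and 88.2 CPM in the libraries labelled DDI2-KO, with no overlap (log2 fold change -0.40, SE 0.17, 95% interval -0.78 to -0.02, adjusted p = 0.198). Bckdha, one of the subunits of its decarboxylase and the highest of the 3 per length in WT at 77.3 CPM per kilobase, measured 145 and 149 CPM in WT and 156 and 92.3 CPM in the libraries labelled DDI2-KO (log2 fold change -0.24, SE 0.25, adjusted p = 0.606). Bckdhb, the partner subunit, measured 64.0 and 65.3 CPM in WT and 76.8 and 69.0 CPM in the libraries labelled DDI2-KO (log2 fold change 0.17, SE 0.16, adjusted p = 0.544). The subunits of this complex had fold changes of both signs, and none passed the test.

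The 2 libraries of a genotype were not alike for these genes. Among the libraries labelled DDI2-KO, library 2 lay below library 1 for 38 of the 42 genes, or 90.5%, where 50% of all tested genes did. The median of that log2 difference was -0.32 for the 42 genes, and 11 of them were more than 1.5-fold apart, or 26.2%, beside 17.7% of all tested genes. Bhmt was 2.81-fold, Gnmt 2.08-fold, Gpt 1.84-fold and Oat 1.81-fold higher in library 1. Tdo2 and Glud1 went the other way. Within WT, library 2 was the higher for 31 genes and the lower for 11, with a median log2 difference of 0.14, and 8 genes were more than 1.5-fold apart, or 19.0%, beside 12.1% of all tested genes. The lowest of the 4 levels was in library 2 labelled DDI2-KO for 24 of the 42 genes, or 57.1%, against 26.7% of all tested genes, and the highest was in WT library 2 for 21, against 22.6%. Across genes, the difference between the libraries labelled DDI2-KO was related to GC content (Spearman's rho -0.481 over 13675 genes, which are not independent), with a value of 0.0683 for WT. The median GC content was 51.5% for the 42 genes and 49.4% for all tested genes. The part of base composition in the difference within the libraries labelled DDI2-KO was not tested. Without library 1 labelled DDI2-KO the median log2 fold change of the 42 genes was -0.38, against 0.075 without library 2.

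**Figure D4:**
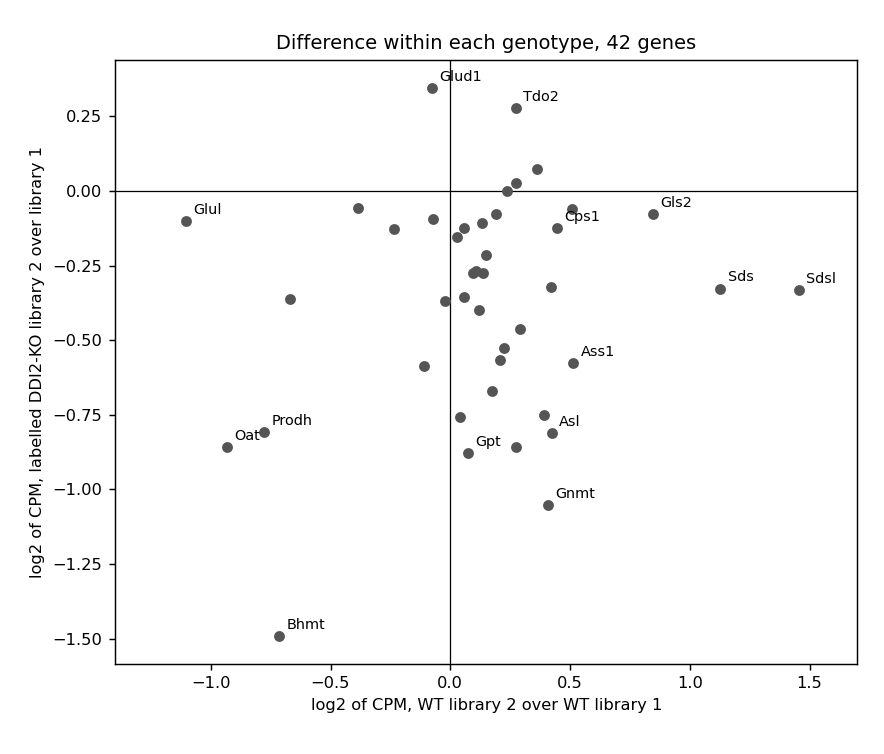
Log2 difference between library 2 and library 1 of each genotype for the 42 genes, WT on the horizontal and labelled DDI2-KO on the vertical axis. Of the 42 points 38 lie below 0 on the vertical axis, with Bhmt lowest, and the WT differences run from Glul at the left to Sdsl at the right.

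Several of the genes farthest apart within WT have a known place along the liver lobule. WT library 1 was the higher for Glul (2.15-fold), Oat (1.91-fold), Prodh (1.72-fold), Bhmt (1.64-fold) and Amt (1.59-fold). WT library 2 was the higher for Sdsl (2.74-fold), Sds (2.19-fold), Gls2 (1.8-fold), Ass1 (1.43-fold), Arg1 (1.42-fold) and Cps1 (1.36-fold). Glul and Oat are textbook pericentral genes, and Sds, Gls2, Ass1, Arg1 and Cps1 periportal ones. Of genes outside the 42, the 11 pericentral markers summed to 13206 CPM in WT library 1 and 8921 CPM in WT library 2, and to 12378 and 11582 CPM in the libraries labelled DDI2-KO. The 10 periportal markers summed to 5075 and 4961 CPM in WT and 4467 and 4201 CPM in the libraries labelled DDI2-KO. Between genotypes 0 of the 11 pericentral markers changed and 1 of the 10 periportal markers, G6pc, rose. Over all tested genes 2.53% rose or fell. Of the 11 pericentral markers, 6 were higher in both libraries labelled DDI2-KO than in either WT library and 1 was lower. Of the 10 periportal markers, 2 were higher in this way and 3 lower. Over all tested genes 28.0% were higher in this way and 27.7% lower. The part of lobule zones in the spread of these genes was not tested.

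Further genes of the same pathways were taken from a list of 99 symbols of amino acid transport and metabolism (1 is a second name of a listed gene and 6 genes were below the filter), of which 92 were tested. Of these 2 rose, 1 fell and 89 did not pass the test, a share of 3.26% that stands beside 2.53% of all tested genes, and their median log2 fold change was 0.14. Slc7a2 fell. It encodes a cationic amino acid transporter that brings arginine and ornithine into hepatocytes, and measured 435 and 510.2 CPM in WT and 207 and 219 CPM in the libraries labelled DDI2-KO, with no overlap (log2 fold change -1.15, SE 0.18, adjusted p = 0.0295 from edgeR). Csad rose. It encodes the cysteine sulfinate decarboxylase of taurine synthesis, and measured 106 and 141 CPM in WT and 334 and 242 CPM in the libraries labelled DDI2-KO (log2 fold change 1.23, SE 0.23, adjusted p = 0.0417). Ethe1, the mitochondrial persulfide dioxygenase of sulfide oxidation, rose from 37.5 and 36.0 CPM in WT to 61.6 and 64.1 CPM in the libraries labelled DDI2-KO (log2 fold change 0.77, SE 0.15, adjusted p = 0.0438). Both genes that rose belong to the 20 tested further genes of methionine and sulfur, whose median log2 fold change was 0.38 and of which 13 were higher in both libraries labelled DDI2-KO than in either WT library, as were 28.0% of all tested genes. These calls were less firm than that of Tdo2: of 15 alternatives Slc7a2 was called in 13, Csad in 10 and Ethe1 in 9, with an adjusted p of up to 0.0623, 0.142 and 0.196.

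**Figure D5:**
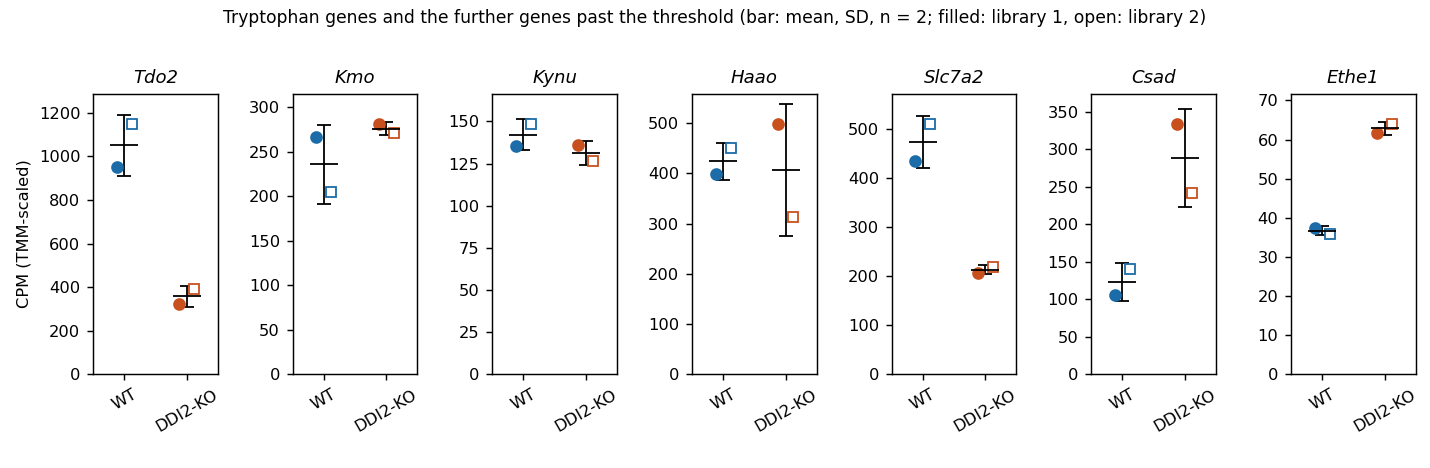
CPM of the 4 tryptophan genes and of Slc7a2, Csad and Ethe1 in each library, by group as labelled (filled, library 1, open, library 2), with a line at the group mean and a bar of 1 SD (n = 2). Tdo2 lies at 951 and 1149.6 CPM in WT and 324 and 393 CPM in the libraries labelled DDI2-KO, Slc7a2 is lower, Csad and Ethe1 are higher, and Kynu and Haao overlap.

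Regulators that act on these genes did not pass the test either. Of 20 tested, 0 changed at an adjusted p under 0.05 (7 at an unadjusted p under 0.05 in edgeR, beside 23.5% of all tested genes, and 3 at an adjusted p under 0.1, beside 9.35%), and their median log2 fold change was -0.11. Cebpa, a liver-enriched factor that drives urea cycle genes, measured 126 and 119 CPM in WT and 226 and 163 CPM in the libraries labelled DDI2-KO, with no overlap (log2 fold change 0.66, SE 0.20, adjusted p = 0.105), and was called in 4 of 15 alternatives. Hnf4a, the nuclear receptor of hepatocyte identity, had a log2 fold change of 0.23 (SE 0.19, adjusted p = 0.514). Klf15, a factor of fasting amino acid breakdown, had -0.46 (SE 0.20, adjusted p = 0.217). Nr3c1, the glucocorticoid receptor, had -0.30 (SE 0.21, adjusted p = 0.412), and Gcgr, the glucagon receptor, -0.18 (SE 0.18, adjusted p = 0.586).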

How the data were processed

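Liver mRNA of 2 WT and 2 DDI2-KO mice was sequenced on an Illumina instrument from TruSeq Stranded mRNA libraries. The files the authors deposited hold raw counts of reads per Ensembl gene and library, not normalized. The submitters' processing notes name cutadapt 1.8, STAR 2.5.2b, HTSeq 0.6.1 and GRCm38. The annotation release and the strand setting of the counting are not given in the sources used here, so reads of Nags, Glul, Gls2, Got2, Sds, Bhmt and Bckdha could not be told from those of antisense genes that overlap them. HTSeq leaves out reads with more than 1 alignment (47.3% to 65.8% of the reads on genes), which lowers genes with near-identical copies. Lines that name no gene were not used: reads on no feature came to 2.53% to 5.11% and ambiguous reads to 2.50% to 3.66% of the reads on genes.

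Symbols, coordinates and exon lengths are from GENCODE M21 of GRCm38, which holds 48349 of the 48709 identifiers, and start regions are from RefSeq. The counts were fitted on genotype alone with edgeR 4.0.16 (R 4.3.3), using filterByExpr, TMM factors, robust glmQLFit and glmQLFTest, with Benjamini-Hochberg adjustment over all genes tested. The study's own test was limma's moderated one, and limma 3.58.1 served here as an alternative. A check for a library deposited more than once found none, since the libraries of a group differed beyond counting noise (chi-square over its degrees of freedom was 69.7 in WT and 37.4 in DDI2-KO). The 42 genes and the other gene lists were chosen with earlier results of these data known, so no p was computed over a list.

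Values in every library are given for each gene of the 42 that changed and, in each role, for the gene with the highest level per length and the gene with the largest fold change whose groups did not overlap. Others are given where a within-group difference is described. Further genes are named where they changed, and regulators where they changed or are Hnf4a, Cebpa, Klf15, Nr3c1 or Gcgr. The alternatives were, for the scaling, RLE factors, upper-quartile factors and plain library totals, for the test, limma-trend (prior count 2), limma-voom and DESeq2 1.42.0, and for the filter, none or a mean of 1 CPM or more, besides a fit that was not robust, a replicate block, offsets for length and GC content (lowess span 0.3), leaving out each library and an adjusted p under 0.1.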

Additional observations from a re-analysis of the deposited data

How the results depend on the processing

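Tdo2 kept its direction and its call in 15 of 15 alternatives, and 39 of the 42 genes were called in none. Glud1 and Agxt were called with DESeq2 (adjusted p = 0.0124 and 0.0452) and with edgeR without a filter (adjusted p = 0.0169 and 0.0292). Each of these fits gave 3 genes in place of 1, and no other alternative fit called Glud1 or Agxt. An adjusted p under 0.1 gave 2, Tdo2 and Glud1. The count over all genes moved from 346 to 907 with DESeq2, 136 with limma-voom, 139 with limma-trend, 1544 without a filter, 152 without robust estimation, 739 with length and GC offsets and 153 to 631 on leaving out 1 library. The further amino acid genes called moved from 3 to 14, 1, 1, 18, 1 and 8 in the first 6 of these alternatives. At an adjusted p under 0.1 they were 16 of the 92 tested, beside 9.35% of all tested genes. Without WT library 2, 1 further gene was called, and without library 2 labelled DDI2-KO 7 were. The cause was not tested.

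With a replicate block the counts were 1108 of all genes, 15 further genes and 1 of the 42 genes. The labels do not say that a number marks a shared litter or day. The deviations of same-numbered libraries had a correlation of 0.0588. That value rests on a single difference within each genotype, so it cannot show whether a litter or day was shared.

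The median log2 fold change of the 42 genes ran from -0.38 to 0.075 on leaving out 1 library. The log2 ratio of the summed level with equal weight per gene was 0.055 for glutamine and glutamate (0.27 as reported) and -0.34 for tryptophan (-0.66). On leaving out 1 library, the log2 ratio of the plain summed level ran from -0.16 to 0.32 for transamination and -0.28 to 0.27 for methionine and sulfur. It ran from -0.40 to -0.12 for histidine and -0.39 to -0.029 for branched-chain genes.

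The sign held in all 15 alternatives for 24 of the 42 genes. The other 18 were called in no alternative. Their log2 fold changes on the other side of 0 were -0.015 for Nags with upper-quartile factors, 0.044, 0.039, 0.012, 0.036 and 0.016 for Otc, Asl, Tat, Hal and Prodh with library totals only, 0.0070 and 0.0028 for Otc and Asl with DESeq2, 0.0062 and 0.0021 for the same genes without a filter, and 0.098, -0.11 and 0.054 for Otc, Glul and Kynu with length and GC offsets. Leaving out 1 library gave ranges of -0.44 to 0.0016 for Cps1, -0.17 to 0.23 for Nags, -0.048 to 0.052 for Otc, -0.47 to 0.35 for Asl, -0.32 to 0.18 for Arg1, -0.39 to 0.71 for Glul, -0.62 to 0.14 for Got1, -0.78 to 0.11 for Gpt, -0.21 to 0.16 for Tat, -0.43 to 0.24 for Haao, -0.92 to 0.21 for Sds, -1.05 to 0.40 for Sdsl, -1.24 to 0.26 for Bhmt, -0.14 to 0.13 for Hal, -0.49 to 0.41 for Prodh, -0.75 to 0.12 for Prodh2 and -0.67 to 0.10 for Bckdha. The number of libraries, 2 a group, limits the precision of these values, and all 42 genes stood above the floor of 3 counts in every library.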

Other observations

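Genes of the same pathways that came close to the threshold are given here, chosen once their values were known. Cdo1, the cysteine dioxygenase that makes the substrate of Csad, measured 1682 and 1454 CPM in WT and 2478 and 2754 CPM in the libraries labelled DDI2-KO (log2 fold change 0.74, SE 0.18, adjusted p = 0.0668 from edgeR). Sqor, the first enzyme of mitochondrial sulfide oxidation, measured 190.5 and 257 CPM in WT and 380.2 and 377 CPM in the libraries labelled DDI2-KO (log2 fold change 0.76, SE 0.20, adjusted p = 0.0774). Suox, Tst and Mpst, also of sulfur oxidation and transfer, overlapped between the groups, with log2 fold changes of -0.13, 0.41 and 0.17. In valine breakdown, Hibadh measured 262 and 289.7 CPM in WT and 501 and 442 CPM in the libraries labelled DDI2-KO, and Acad8 52.9 and 56.4 CPM in WT and 99.7 and 83.9 CPM (adjusted p = 0.0613 and 0.0565 from edgeR). Ppm1k, the phosphatase that activates the branched-chain dehydrogenase, measured 67.2 and 61.7 CPM in WT and 36.6 and 44.6 CPM in the libraries labelled DDI2-KO (log2 fold change -0.67, SE 0.17, adjusted p = 0.0711).

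Kyat1, a kynurenine aminotransferase, measured 186 and 174 CPM in WT and 110.3 and 103 CPM in the libraries labelled DDI2-KO, on the same side as Tdo2 (log2 fold change -0.75, SE 0.16, adjusted p = 0.0547). Of the 7 further tryptophan genes tested, 4 were lower in both libraries labelled DDI2-KO than in either WT library (27.7% of all tested genes) and 0 were higher in both (28.0%), and 0 passed an adjusted p under 0.05 (3 at an unadjusted p under 0.05 in edgeR, beside 23.5% of all tested genes). Slc38a3, a glutamine transporter, measured 1923 and 2277 CPM in WT and 1434 and 941 CPM in the libraries labelled DDI2-KO (log2 fold change -0.82, SE 0.23, adjusted p = 0.0909).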
